A study of Mus musculus with 4 samples.

Results

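Of the 22911 genes that could be named on the arrays, 8 were taken here as genes changed alike in both cell types of the study, *AA465934*, *Grn*, *Naip6*, *Xaf1*, *Fbxw10*, *Tox4*, *Mid1* and *Unc13b*. They were chosen because their values on these same arrays were higher in *Sipa1*-/- than in wild-type (Wt) cells in both cell types, so their ratios are given as descriptions and support nothing by themselves. The question asked of them was whether every probe of a gene moves together. The arrays carried 14 probes for the 8 genes, each printed on 1 spot, with 1 probe for each of *AA465934*, *Fbxw10*, *Naip6* and *Unc13b*, and several for each of the other 4 genes. In short, 0 of the 4 genes with several probes had all of its probes at least 2-fold higher in both cell types, and in *Grn*, *Xaf1* and *Tox4* the high ratio came from 1 probe.

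The study injected *Bcr-Abl*+ hematopoietic progenitor cells, marked with GFP and prepared from Wt bone marrow, under the skin of Wt and *Sipa1*-/- hosts (sipa1 KO in the labels), all 8 weeks old and of strain C57BL/6Ncr, and took the tumors on day 12. *Sipa1* encodes a GTPase-activating protein for Rap1, and the knockout is in the host and not in the injected cells. Mesenchymal stroma cells (MSCs) were sorted as GFP- CD45- Ter119- CD31- cells, and CD8 T cells (called T cells from here on) as GFP- TCRb+ CD8+ cells. RNA of each cell type and genotype was hybridized to 1 Agilent one-color array, from 5 mice of each genotype, and whether the mice were pooled for an array is not given in the sources used here. With 1 array per condition there is no replicate check, no test and no p-value, and the number of arrays limits the precision. In bulk samples like these, fewer cells of a type and less RNA per cell cannot be told apart.

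The 8 genes have different known roles. *Grn* encodes progranulin, a secreted glycoprotein that is also carried to lysosomes and cut there into granulins, and myeloid cells are a known source of it. *Xaf1* encodes an interferon-inducible antagonist of the caspase inhibitor XIAP. *Naip6* encodes a cytosolic receptor of the NAIP family, whose members sense bacterial flagellin and secretion-system proteins and act with Nlrc4. *Tox4* encodes an HMG-box protein of the PTW phosphatase complex on chromatin. *Fbxw10* encodes an F-box and WD40-repeat protein, a kind of protein that brings substrates to ubiquitin ligases of the SCF type. *Mid1* encodes a TRIM ubiquitin ligase bound to microtubules, which acts on the phosphatase PP2A through the alpha4 protein, and in laboratory mice it lies at the pseudoautosomal boundary of the X chromosome. *Unc13b* encodes Munc13-2, which primes secretory vesicles for fusion. *AA465934* is annotated as a long noncoding RNA, with no role named here.

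The start regions of 4 of the genes are shown because these genes hold probes that were at least 8-fold higher in both cell types and measured on all 4 arrays. They come from RefSeq on build GRCm38.p6 and run over 300 bases, from upstream of a start site to just past it. Most of the *Xaf1* region lies inside the gene as annotated, as does all of the *Unc13b* region, which is not shown. All 8 genes matched this table, with 10 regions, since *Mid1* has 3. Capitals mark the motifs searched on both strands, which were the E-box CACGTG, the CCAAT box CCAAT, the GC box GGGCGG, the TATA box TATAAA and the interferon-stimulated response element.
*AA465934*, chr11:83291449-83291748, plus strand: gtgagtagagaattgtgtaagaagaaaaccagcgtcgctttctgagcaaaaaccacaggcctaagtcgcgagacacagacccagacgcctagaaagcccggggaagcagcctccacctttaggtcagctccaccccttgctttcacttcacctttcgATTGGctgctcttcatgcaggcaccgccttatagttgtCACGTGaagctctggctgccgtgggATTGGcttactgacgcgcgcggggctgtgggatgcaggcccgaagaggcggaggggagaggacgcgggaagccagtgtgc
*Grn*, chr11:102430257-102430556, plus strand: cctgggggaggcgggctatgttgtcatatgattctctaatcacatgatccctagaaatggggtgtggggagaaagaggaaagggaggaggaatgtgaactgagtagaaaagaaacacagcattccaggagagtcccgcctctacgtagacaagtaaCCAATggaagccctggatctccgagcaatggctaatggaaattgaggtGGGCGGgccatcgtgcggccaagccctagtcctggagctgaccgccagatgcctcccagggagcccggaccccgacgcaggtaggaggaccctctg
*Xaf1*, chr11:72301379-72301678, plus strand: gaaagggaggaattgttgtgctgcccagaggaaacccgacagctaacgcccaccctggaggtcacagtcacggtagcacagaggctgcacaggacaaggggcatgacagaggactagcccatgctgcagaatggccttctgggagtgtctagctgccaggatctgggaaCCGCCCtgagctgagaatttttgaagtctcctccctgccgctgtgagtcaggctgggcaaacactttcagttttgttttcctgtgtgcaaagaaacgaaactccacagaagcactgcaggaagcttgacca
*Tox4*, chr14:52278896-52279195, plus strand: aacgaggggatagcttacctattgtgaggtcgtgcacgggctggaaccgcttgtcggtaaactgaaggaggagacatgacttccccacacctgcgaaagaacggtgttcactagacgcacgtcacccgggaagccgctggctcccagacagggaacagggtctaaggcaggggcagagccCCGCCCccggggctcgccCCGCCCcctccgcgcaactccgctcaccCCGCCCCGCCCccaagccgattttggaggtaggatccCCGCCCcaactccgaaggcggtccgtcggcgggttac
Among the 10 regions, 2 held the E-box (*AA465934* and *Unc13b*), 4 the CCAAT box and 4 the GC box. Of all 32851 regions in the table, 7.15%, 37.4% and 35.7% held these motifs. The *Tox4* region held 5 GC boxes, of which a neighboring pair overlaps. None of the 10 held TATAAA or an interferon-stimulated response element, which were found in 13.6% and 3.44% of all regions. A match is a description of letters, and the genes share none of the motifs as a group.

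All 4 arrays lay on 1 slide and were read in 1 scan. Between 59.7% and 64.3% of the 59305 spots that are not controls passed the quality flags, and no spot was saturated. Levels are log2 signals relative to the 75th percentile of each array, so that 0 stands for that percentile. A ratio is the difference of 2 levels, *Sipa1*-/- minus Wt. The scanner software gave each spot an error, which for the ratios of the 14 probes came to a median of 0.21, and to 0.43 at most for a dim *Mid1* probe. Probes printed on 10 or more spots had a median SD of about 0.04 at levels of -3 or more, and of 0.14 to 0.36 over the 3 to 7 such probes at levels from -6 to -3. These errors cover the spots and not the spread between mice. *Sipa1* itself was lower in *Sipa1*-/- cells on both of its probes, with ratios of -1.59 and -1.25 in MSCs and -2.05 and -1.67 in T cells, and was still well above background, and where these probes lie relative to the targeted part is not given in the sources used here. Of 20 CD8 T cell markers, 17 passed the flags on both T cell arrays. Fibroblast and mesenchymal markers were present in the MSC sorts, with 20 of 22 passing the flags on both arrays, as 21 did in the T cell sorts. They moved with the genotype in both sorts, with 20 of 20 measured genes higher in *Sipa1*-/- MSCs and 20 of 21 in *Sipa1*-/- T cells. Over the list the median ratio was 1.70 in MSCs and 1.55 in T cells. At least 2-fold higher were 15 of 20 and 17 of 21, beside 19.3% and 2.66% of all genes. The summed level of these markers went in MSCs from 10.28 to 11.21 and in T cells from 8.05 to 8.53. In T cells *Thy1* and *Vim* dominate the sum, with Wt levels of 7.37 and 5.69 and ratios of 0.09 and -0.09. The part of the fibroblast markers in the values below was not tested. B-lineage markers went from a summed level of 9.43 in the Wt MSC sort to 5.42 in the *Sipa1*-/- one, and granulocyte markers from 9.35 to 8.42 on the T cell arrays, and the part of neither was tested.

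**Figure D1:**
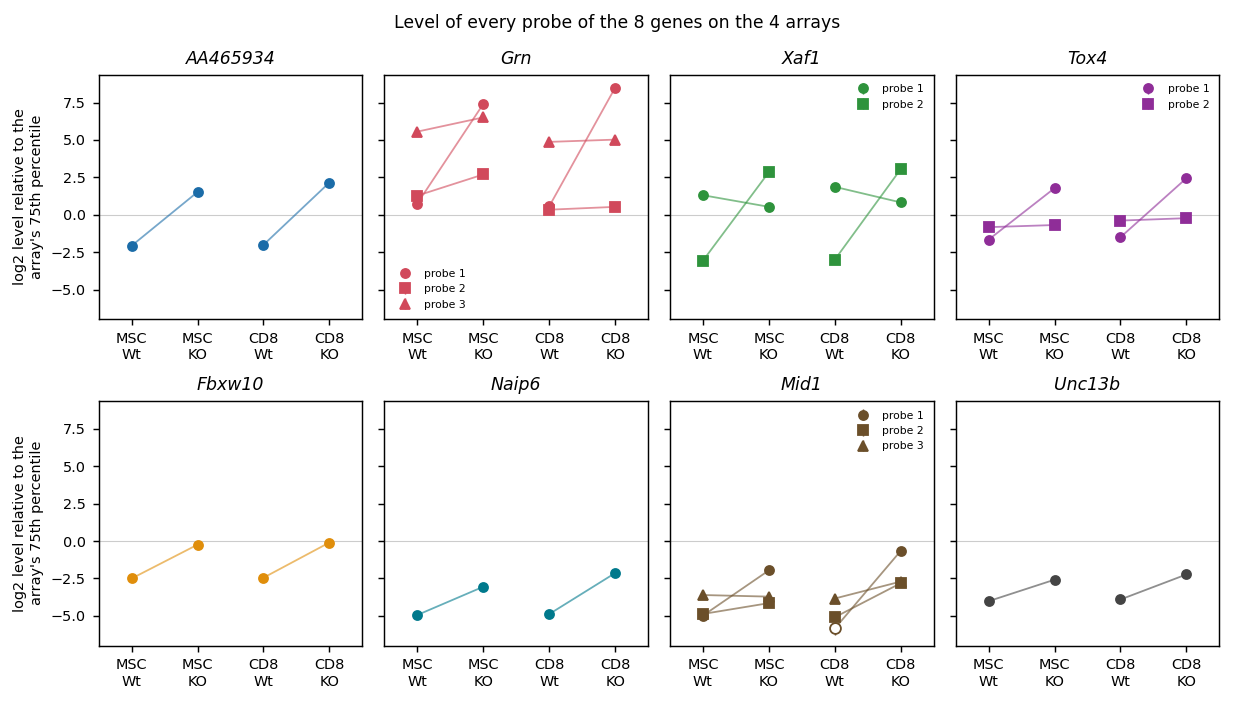
Log2 level of each probe on the 4 arrays, relative to the 75th percentile of the array, in 1 panel per gene. Bars are the scanner's error of a spot, often smaller than the symbol, lines join the Wt and *Sipa1*-/- (KO) arrays of a cell type, and the open symbol is the only value not well above background. In *Grn*, *Xaf1* and *Tox4* 1 probe climbs steeply while the others do not.

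Among the genes with 1 probe, *AA465934* had the highest ratios. Its level was -2.07 in Wt MSCs and 1.52 in *Sipa1*-/- MSCs, and -2.01 in Wt T cells and 2.16 in *Sipa1*-/- T cells. Both *Sipa1*-/- arrays were thus far above both Wt arrays, and the Wt arrays of the 2 cell types were nearly level. The ratio was 3.59 ± 0.21 in MSCs, or 12.1-fold, and 4.17 ± 0.21 in T cells, or 18.0-fold, where ± is the scanner's error.

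*Fbxw10*, of the F-box family, had levels of -2.50 and -0.24 on the Wt and *Sipa1*-/- MSC arrays and of -2.45 and -0.10 on the T cell arrays. Its ratios of 2.26 ± 0.21 in MSCs and 2.35 ± 0.21 in T cells were the closest pair among the genes with 1 probe. The probe was designed on transcript NM_001291441, one of several *Fbxw10* transcripts in RefSeq.

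*Naip6*, the NAIP receptor, was dim, with levels of -4.94 and -3.06 in MSCs and -4.88 and -2.14 in T cells. It was higher on both *Sipa1*-/- arrays, with ratios of 1.89 ± 0.26 and 2.74 ± 0.28. *Naip6* has near-identical neighbors in its family, and how far its probe reads them is uncertain. The neighboring *Naip5* had ratios of -0.14 in MSCs and 0.003 in T cells on probe A_55_P2014706. Its other probe, A_66_P119315, had -0.67 in T cells and did not pass the flags in MSCs. *Naip2* had -0.50 and -1.91, so that neither gene was higher beyond the scanner's error. With the normexp background correction *Naip6* had 0.68 in MSCs and lost its 2-fold call there.

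*Unc13b*, which encodes Munc13-2, was dim as well, with levels of -4.02 and -2.58 in MSCs and -3.91 and -2.23 in T cells. Its ratios were 1.44 ± 0.22 and 1.67 ± 0.23, the lowest of the genes with 1 probe. With normexp they were 0.69 and 0.75, under 2-fold in both cell types. For these 4 genes the agreement of probes cannot be asked.

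*Grn*, the progranulin gene, had 3 probes on the same transcript, NM_008175. Probe A_52_P508750 had a level of 0.75 in Wt MSCs and 7.40 in *Sipa1*-/- MSCs, and 0.55 in Wt T cells and 8.49 in *Sipa1*-/- T cells. Its ratios were 6.65 ± 0.20, or 101-fold, in MSCs and 7.93 ± 0.20, or 245-fold, in T cells, the highest pair on the array by the smaller of the 2 ratios.
Probe A_55_P2909287 went in MSCs from 5.56 to 6.51 and in T cells from 4.87 to 5.02. Its ratio was 0.95 ± 0.20 in MSCs, well past the scanner's error, and 0.15 ± 0.20 in T cells, within it. Probe A_55_P2506040 went from 1.28 to 2.69 and from 0.34 to 0.53, with ratios of 1.42 ± 0.20 and 0.19 ± 0.20. All 3 probes were thus higher in *Sipa1*-/- MSCs, whereas in T cells 1 probe was higher and the other two were level within the scanner's error. The gene mean of 3.01 in MSCs and 2.76 in T cells rests on A_52_P508750.

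*Xaf1*, the antagonist of XIAP, had 2 probes on transcript NM_001037713, with ratios of opposite sign. Probe A_55_P1966838 went in MSCs from -3.07 to 2.85 and in T cells from -3.0 to 3.06, with ratios of 5.92 ± 0.21, or 60.7-fold, and 6.06 ± 0.21, or 66.6-fold. Probe A_55_P1966833 went from 1.31 to 0.53 and from 1.87 to 0.83, so that it was lower on both *Sipa1*-/- arrays. Its ratios were -0.78 ± 0.20 and -1.04 ± 0.20, and of all probes measured in T cells 1.17% were at least 2-fold lower, as it was, beside 2.03% higher. In MSCs 16.6% of all probes were at least 2-fold higher and 11.6% lower. The mean of the 2 probes, 2.57 in MSCs and 2.51 in T cells, describes neither of them.

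*Tox4*, of the PTW phosphatase complex, had 2 probes on transcript NM_023434. Probe A_55_P2121618 went in MSCs from -1.66 to 1.78 and in T cells from -1.50 to 2.45, with ratios of 3.44 ± 0.20 and 3.95 ± 0.20. Probe A_66_P130333 went from -0.83 to -0.69 and from -0.39 to -0.23, with ratios of 0.14 ± 0.20 and 0.16 ± 0.20. The second was level within the scanner's error in both cell types, while the first was more than 8-fold higher in each.

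*Mid1*, the TRIM ubiquitin ligase, had 3 probes on transcript NM_001290505, all of them dim. Probe A_55_P2337074 had levels of -4.98 and -1.96 in MSCs, a ratio of 3.02 ± 0.27. In T cells its level on the *Sipa1*-/- array was -0.65 and on the Wt array it was not well above background, which makes it at least 30.1-fold higher. Probe A_66_P105859 went in MSCs from -4.87 to -4.15 and in T cells from -5.09 to -2.81, with ratios of 0.73 ± 0.29 and 2.28 ± 0.33. Probe A_66_P140969 went from -3.61 to -3.71 and from -3.84 to -2.71, with ratios of -0.11 ± 0.23 and 1.13 ± 0.23. In T cells all 3 probes were at least 2-fold higher on the *Sipa1*-/- array, and in MSCs 1 of the 3 was. The 3 probes kept the same order of ratios in both cell types.

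Counted over all 14 probes, 8 were at least 2-fold higher in both cell types. Of the 13 that passed the flags on all 4 arrays, 7 were, and of all 29371 probes that passed them 1.49% were. Among the 15297 genes measured in MSCs 19.3% were at least 2-fold higher in *Sipa1*-/- cells, and among the 14336 in T cells 2.66% were. Of these 29371 probes, 6 (0.0204%) were at least 8-fold higher in both cell types. They were A_52_P508750 of *Grn*, A_55_P1966838 of *Xaf1*, the *AA465934* probe, A_55_P2121618 of *Tox4*, and a probe each of *Col6a5* and *Fbln7*. A_55_P2337074 of *Mid1*, not among the 29371, was past 8-fold in both as well, by its bound in T cells. The members were picked from these contrasts, and nothing is read from their share.

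**Figure D2:**
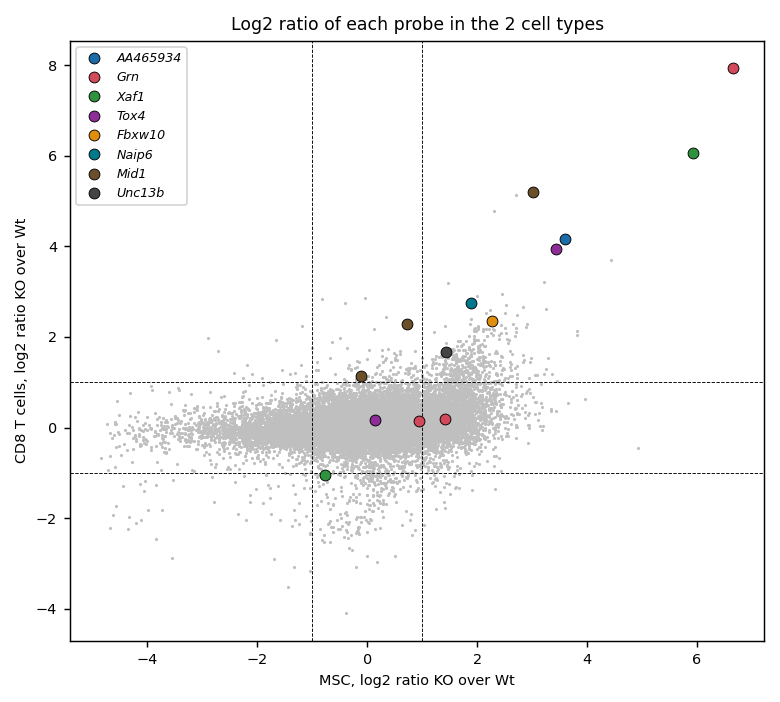
Log2 ratio of *Sipa1*-/- (KO) over Wt in MSCs (x axis) and in T cells (y axis), with 1 point per probe, gray for the 29371 measured probes and colored for the 14 probes of the 8 genes. Dashed lines mark 2-fold. The probes of *Grn* and *Xaf1* at the upper right lie apart from the rest, and the other probes of *Grn*, *Tox4* and *Xaf1* lie within or near the gray cloud.

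How far the probes of 1 gene part was described over the 4778 genes with 2 or more measured probes. The members were chosen for high ratios on these same arrays. A wide distance thus follows where not all probes of a member are high, and the members' ranks are a description. The distance between the highest and the lowest ratio in a gene had a median of 0.20 in MSCs and 0.16 in T cells, and 1% of the genes exceeded 2.04 and 1.21. In MSCs it was 6.70 for *Xaf1*, 5.70 for *Grn*, 3.30 for *Tox4* and 0.83 for *Mid1*. *Xaf1* had the widest distance of all genes in MSCs, *Grn* the next, and 3 genes were wider than *Tox4*. In T cells it was 7.78 for *Grn*, 7.10 for *Xaf1*, 3.79 for *Tox4* and 1.15 for *Mid1*. There *Grn* was the widest, *Xaf1* the next, and again 3 genes were wider than *Tox4*, while 53 were wider than *Mid1*. In MSCs 405 genes were wider than *Mid1*. These *Mid1* values leave out A_55_P2337074, which did not pass the flags on the Wt T cell array. All 3 *Mid1* probes passed them on both MSC arrays, and over these the distance in MSCs was 3.13.

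A gene with 1 probe past 2-fold in both cell types did not usually have all of them past it. Of the 4778 genes, 88 (1.84%) had at least 1 such probe and 27 (0.565%) had every probe so, which is 30.7% of the 88. *Grn*, *Xaf1* and *Tox4* are among those of the 88 that did not. With A_55_P2337074 left out, *Mid1* had no probe past 2-fold in both cell types.

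**Figure D3:**
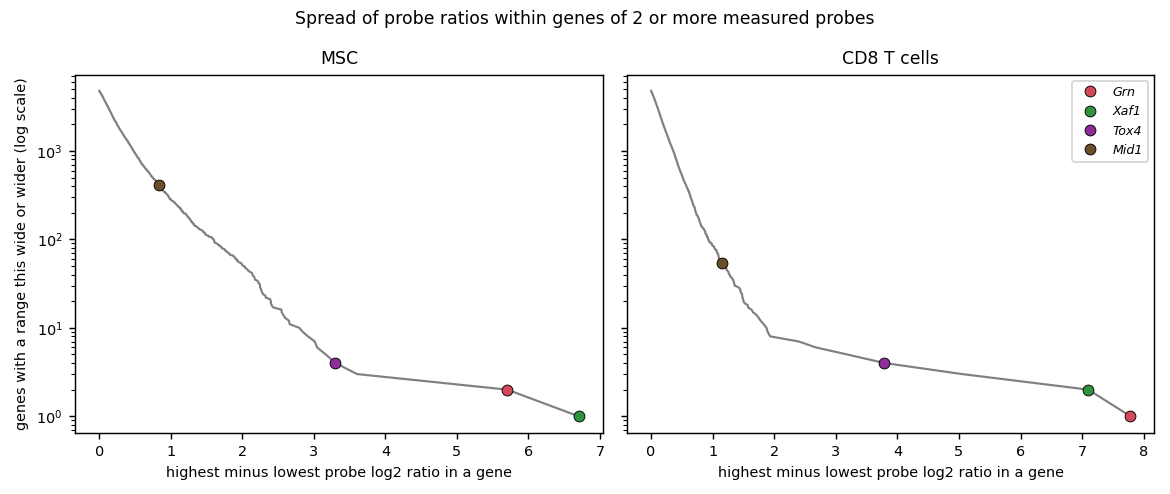
Number of genes, on a log scale, whose probe ratios spread at least as far as the value on the x axis, for MSCs (left) and T cells (right), over 4778 genes with 2 or more measured probes. Colored points are the 4 member genes with several probes, and *Grn*, *Xaf1* and *Tox4* lie in the far tail in both panels. The member genes were chosen on ratios of these same arrays.

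The cell types were then compared within a genotype, each probe with itself. On the Wt arrays the 13 measured probes had levels within 2-fold between the cell types. For the 7 of them that were at least 2-fold higher in both, the difference, MSCs minus T cells, ran from -0.16 for *Tox4* to 0.20 for *Grn*. On the *Sipa1*-/- arrays these 7 and A_55_P2337074 of *Mid1* were all lower in MSCs, with differences from -1.31 to -0.14 and a median of -0.65. The ratios of these 8 probes were larger in T cells, by 0.09 for *Fbxw10* and by 1.28 for *Grn*, with only a bound for *Mid1*. For *Fbxw10*, *Unc13b* and *Xaf1* the difference was no larger than the scanner's errors of both ratios together. How many of all probes had a larger ratio in T cells, or a lower *Sipa1*-/- level in MSCs, was not counted. Nothing is therefore read from the shared direction. The remaining *Grn* probes went the other way, with levels 2.16 (A_55_P2506040) and 1.49 (A_55_P2909287) higher in *Sipa1*-/- MSCs than in *Sipa1*-/- T cells. Over all measured probes 74.1% were within 2-fold between cell types on the Wt arrays and 62% on the *Sipa1*-/- arrays. Like levels in the cell types may have entered the choice of the genes, so these values are a description.

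Most other probes higher in both cell types had another pattern of levels. Of the 437 measured probes at least 2-fold higher in both, 38 (8.7%) had Wt levels within 2-fold between cell types, 7 of them of the member genes. Of the 430 that belong to no member, 347 were at least 8-fold brighter on the Wt MSC than on the Wt T cell array, with a median difference of 4.69. Other genes with ratios like the members' were taken by rule from the 168 genes at least 2-fold higher in both and with ratios within 0.5 of each other over the 4 arrays, and the 5 with the largest smaller ratio were *Fbln7*, *Col8a1*, *Ccl11*, *H19* and *Fibin*, each with 1 probe. Several of them are genes of matrix and stroma, *Col8a1* a collagen chain and *Ccl11* the eosinophil chemokine eotaxin. Their ratios lay between 2.50 and 3.21 in MSCs and between 2.48 and 3.22 in T cells. *Fbln7* had levels of 1.05 and 4.26 in MSCs and of -4.40 and -1.18 in T cells, and *H19* of 4.18 and 6.68 and of -1.76 and 0.77. These genes resembled the members in their ratios and not in their levels, which were far lower in T cells.

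Other probes at least 2-fold higher in both cell types and with like Wt levels were looked for after the values had been seen. Like levels were within 2-fold between cell types, and the 2 ratios did not have to be close to each other. There were 31 such probes, of which 18 had a gene name. With both log2 ratios at 2 or more, which the probes of *Naip6* and *Unc13b* do not reach, there were 4. Named among them were *Gria1*, a glutamate receptor subunit, with ratios of 3.82 in MSCs and 2.14 in T cells, and *Cuedc1*, with 3.81 and 2.05. The other two carry no gene name here, and 1 of them, probe A_55_P2736804, had 2.70 and 5.14. *Gria1* was at the edge of detection on the Wt arrays, with levels of -5.45 and -5.01.

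**Figure D4:**
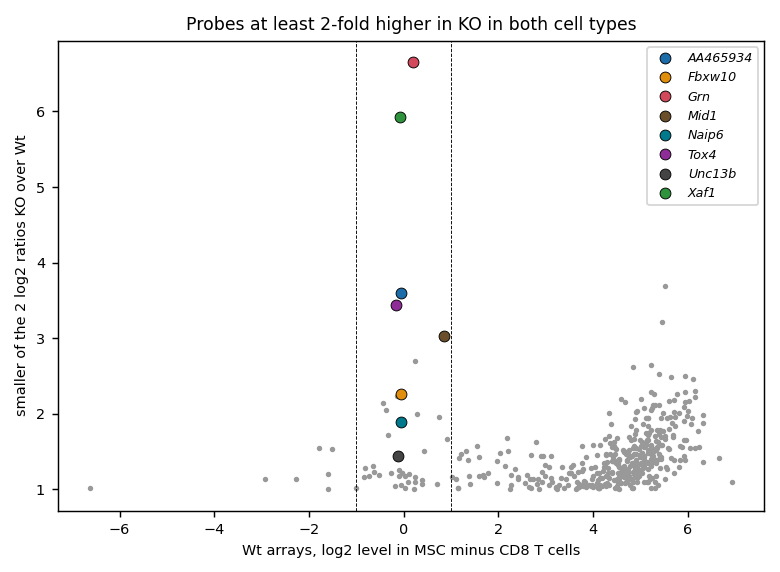
The 437 measured probes at least 2-fold higher in *Sipa1*-/- cells of both types, by the Wt level in MSCs minus that in T cells (x axis) and the smaller of the 2 log2 ratios (y axis). Colored points are 8 probes of the 8 genes, of which that of *Mid1* is not among the 437, dashed lines mark 2-fold, and most gray points sit to the right, where the Wt MSC array was brighter.

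Genes that share a pathway with the members were set beside all genes and not beside the members, which were chosen for high ratios. In T cells 0 of the 110 measured genes on 8 lists drawn up around the members' roles were at least 2-fold higher in *Sipa1*-/- cells, beside 2.66% of all genes. At least 2-fold lower were 4, 3.64% beside 1.4% of all genes. In MSCs 17 of 109 were higher, 15.6% beside 19.3% of all genes, and 7 were lower, 6.42% beside 11.3%. List medians within 0.2 of 0, other than that of the inflammasome list in T cells, changed sign with the scaling of the arrays and carry no direction. The lysosome list held 10 of these 17, with 18 of 20 genes higher and a median ratio of 0.94 beside 0.04 for all genes, and in T cells its median was 0.06. Its members included the cathepsins *Ctsl*, with a ratio of 1.70 in MSCs, and *Ctsd*, with 1.08, and *Gpnmb*, a glycoprotein of macrophage lysosomes, with 1.95. On the same arrays macrophage and dendritic cell markers had a median ratio of 0.82, with 5 of 14 at least 2-fold higher and a summed level that went from 4.57 to 4.74, fibroblast markers a median of 1.70 and B-lineage markers one of -4.19. The part of these markers in the lysosome values was not tested. *Sort1*, which encodes the receptor that takes up progranulin, had 0.07 in MSCs and -0.05 in T cells.

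Interferon-stimulated genes, the class to which *Xaf1* belongs, had a median ratio of 0.37 over 23 genes in MSCs, beside 0.04 for all genes. Of the 23, 0 were at least 2-fold higher, beside 19.3% of all genes. In T cells the median was -0.39, beside -0.02 for all genes, with 21 of the 23 lower. At least 2-fold lower were 2 of them, beside 1.4% of all genes, *Rsad2* with -1.84 and *Oas2* with -1.17. *Isg15*, a ubiquitin-like interferon target, had 0.35 in MSCs and -0.95 in T cells. In MSCs 17 of the 23 were higher. The 2 *Xaf1* probes had opposite signs in each cell type. A list median of either sign thus matches 1 of them, and nothing is read from it. *Xiap* had -0.21 and -0.05, and the list around it medians of -0.30 and -0.05.

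The inflammasome list around *Naip6* had medians of -0.12 in MSCs and -0.19 in T cells. In T cells 2 of 12 genes were at least 2-fold lower, beside 1.4% of all genes, *Il1b* with -2.31 and *Naip2* with -1.91. In MSCs 3 of 12 were lower, beside 11.3% of all genes, and 1 was higher, beside 19.3%. *Nlrc4*, the partner of the NAIP receptors, had -1.66 in MSCs and -0.29 in T cells. It was dim in MSCs, with levels of -3.85 and -5.50. The lowest level well above background on the *Sipa1*-/- MSC array was -5.79. *Aim2* and *Nlrp1b*, also among the 3 lower in MSCs, were at -4.42 and -4.83 on that array. The lower *Il1b* stood beside the lower granulocyte markers of the *Sipa1*-/- T cell sort, of which 10 of 14 were at least 2-fold lower, and their part in it was not tested.

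Around *Tox4*, the TOX family and the PTW complex had medians of -0.52 over 6 genes in MSCs and -0.07 over 7 in T cells. The F-box list had -0.15 and -0.07 over 13 genes, and the list of Mid1 and PP2A partners -0.38 and -0.01 over 9. *Mid2*, the paralog of *Mid1*, had 1.62 in MSCs and 0.64 in T cells. The list of vesicle priming around *Unc13b* had 0.37 and -0.04 over 15 genes. Within it *Unc13d*, the paralog used by cytotoxic lymphocytes to release granules, had -1.18 in MSCs and -0.04 in T cells. Common leukocyte markers had a median ratio of -1.99 on the MSC arrays, and their part in the *Unc13d* value was not tested.

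By position, 4 of the 8 genes lie on chromosome 11, *Fbxw10*, *Xaf1*, *AA465934* and *Grn* in this order, and the others on chromosomes 4 (*Unc13b*), 13 (*Naip6*), 14 (*Tox4*) and X (*Mid1*), while *Sipa1* is on chromosome 19. Chromosome 11 carried 8.55% of the genes measured on all 4 arrays, and 2.46% of its genes were at least 2-fold higher in both cell types, beside 2.25% of all. *Gria1* and *Cuedc1*, named above after their values were seen, also lie on chromosome 11. The rest of the 18 other named probes at least 2-fold higher in both cell types with like Wt levels belong to genes on other chromosomes. The part of position in these ratios was not tested. The nearest 5 measured genes on each side of a member, 75 in all since *Mid1* had neighbors on 1 side, were then taken. In T cells 4 of the 75 (5.33%) were at least 2-fold higher and 4 (5.33%) lower, beside 2.66% and 1.4% of all genes, with a median ratio of -0.04. In MSCs 11 (14.7%) were higher and 14 (18.7%) lower, beside 19.3% and 11.3% of all genes, with a median of -0.27. Higher in both were 2 (2.67%), *Fzd2* near *Grn* and *Rusc2* next to *Unc13b*. On the Wt arrays *Fzd2* was 5.27 brighter in MSCs than in T cells, and the measured probes of *Rusc2* were 4.20 and 3.78 brighter. These *Rusc2* probes had ratios of 1.24 and 0.97 in T cells, the latter under 2-fold.

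Beside *Fbxw10*, 2 genes were at least 2-fold higher in T cells and not in MSCs. *Trim16*, a TRIM-family gene just before it in gene order, had 2 probes with ratios of 2.23 and 1.75 in T cells and of -1.19 and -0.36 in MSCs, so that its probes went the same way as each other and its cell types did not. *Zfp286*, a zinc finger gene one place further, had 1.33 in T cells and 0.59 in MSCs. These neighbors were named after their values were seen. Around *AA465934*, *Xaf1*, *Tox4*, *Naip6* and *Mid1* 0 of the neighbors were at least 2-fold higher in both cell types.

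**Figure D5:**
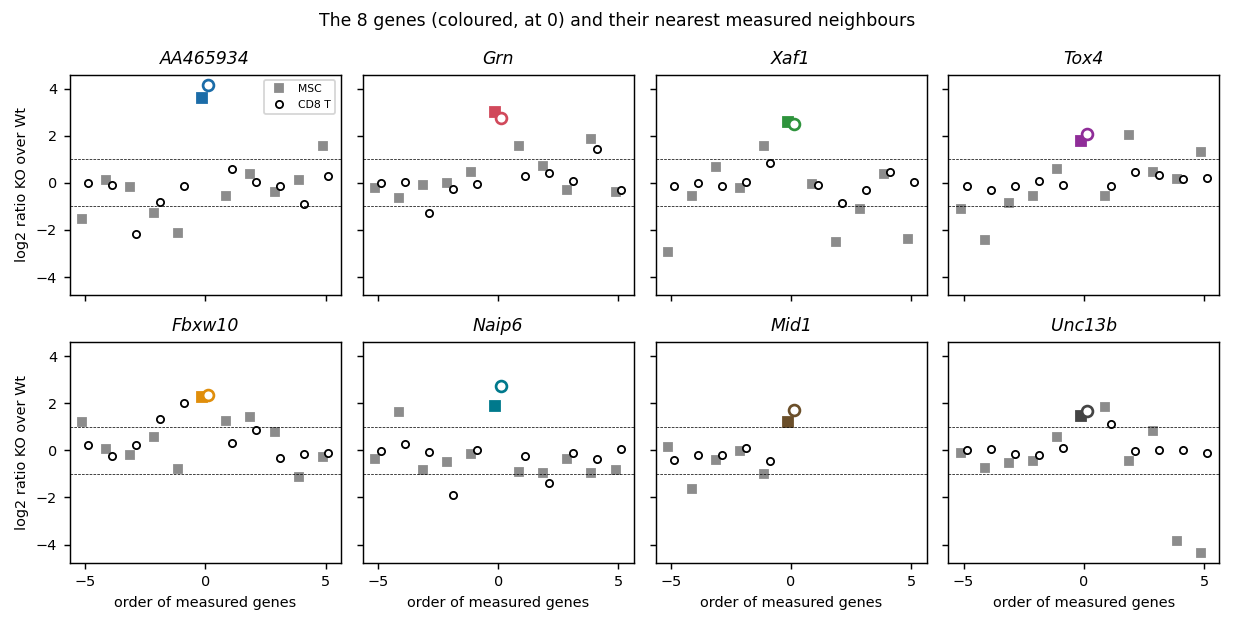
Log2 ratio of *Sipa1*-/- (KO) over Wt for each of the 8 genes (colored, at 0) and the 5 nearest measured genes on each side in chromosome order, with squares for MSCs and open circles for T cells. Dashed lines mark 2-fold. Each gene is drawn as the mean of its probes, which for *Grn* rests on 1 probe and for *Xaf1* describes neither, and *Trim16* left of *Fbxw10* lies close to it in T cells.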

How the data were processed

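RNA of MSCs and CD8 T cells (T cells) of Wt and *Sipa1*-/- hosts was measured on 4 Agilent one-color arrays (SurePrint G3 Mouse v2), 1 per group. The authors deposited spot intensities, background-corrected by Feature Extraction 12.0.3.1 per the file headers (the submitters' processing notes name 9.1) without scaling across arrays. In the series matrix, also from the authors, stand the same intensities times 1 constant per array (within 0.1% for 100% of spots), on a linear scale. Its medians were 41.0, 52.0, 25.5 and 30.9 for Wt MSCs, *Sipa1*-/- MSCs, Wt T cells and *Sipa1*-/- T cells, and the origin of the constants is not given in the sources used here.

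Main values were log2 intensities minus each array's 75th percentile over spots that are not controls, and spots of a probe were averaged. A probe was measured in a pair when the study's flags (no saturation, uniform spot and background, signal significant and well above background) held on both arrays. A gene's value was the mean of its measured probes. A probe not well above background was given as a bound against the higher of its own level and the lowest level well above background on that array. Probe accessions gave symbols through RefSeq (GRCm38.p6) for 57.6% of spots, so further probes of the 8 genes may be unnamed here. Probe sequences were not used here. Named genes were the 8 members with every probe, *Sipa1*, and the 5 other genes with the largest smaller ratio among those with both ratios at least 1 and within 0.5, leaving out clone and predicted names. Besides pathway lists, marker lists of 8 cell types were used. Their medians in MSCs and T cells were 0.67 and 0.11 (CD8 T cell), 1.70 and 1.55 (fibroblast and mesenchymal), -4.19 and -0.14 (B lineage), -1.99 and -0.07 (common leukocyte), 0.28 and -1.30 (granulocyte), 0.37 and 0.04 (endothelial), 0.82 and 0.14 (macrophage and dendritic cell) and 0.60 and -0.04 (skeletal muscle). Members and lists were chosen with earlier results of these data known. Calculations were tested on simulated data. The work used R 4.3.3 with limma 3.58.1 for normexp and quantile normalization, and pandas 2.3.3 and numpy 2.4.6 under Python 3.11.15 with matplotlib 3.10.9.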

Additional observations from a re-analysis of the deposited data

How the results depend on the processing

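No paired analysis was possible because each group has 1 array. Of 112 values of the 8 genes under the alternatives to the main setting, 110 were above 0 and 103 at or above 1. Of the 110, 33 moved from the main value by more than its scanner's error, which thus does not cover the choice of processing. The 2 below 0 were those of *Xaf1* with its brightest probe taken in place of the mean, -0.78 in MSCs and -1.04 in T cells, where the 2 probes part. The brightest probe also took *Grn* to 0.95 and 0.15. With normexp (offset of 50, median spot signals), which adds to dim signals, *Naip6* had 0.68 in MSCs, *Unc13b* 0.69 in MSCs and 0.75 in T cells, and *Mid1* 0.50 and 0.65. Genes with every measured probe at least 2-fold higher in both cell types then numbered 2 in place of 4, and probes 5 in place of 7. Under median shift, quantile normalization, the series matrix values, flags on 1 array of each pair and no flags the genes stayed at 4 in number and the probes at 7 or 8. With a log2 ratio of 1.5 asked they were 3 and 6, and with 1.5-fold 4 and 8. Of the genes with several measured probes, 0 had every probe past the threshold in any of these. The median of all genes moved to -0.10 in MSCs and -0.17 in T cells under median shift and to 0.25 and 0.11 under the series matrix values. The pathway lists were recomputed under these settings after seeing the data. The interferon-stimulated list stayed between 0.23 and 0.57 in MSCs and between -0.54 and -0.26 in T cells, and the lysosome list between 0.81 and 1.15 in MSCs, but in T cells the lysosome list and those around *Mid1*, *Unc13b*, *Fbxw10*, *Tox4* and *Xiap* turned sign, as did in MSCs the F-box and inflammasome lists. Their medians of between -0.29 and 0.20 there give no direction. Dim probes, at levels below -3, carry the widest errors, which touches *Naip6*, *Unc13b* and *Mid1*.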
